A study of Macaca fascicularis with 86 samples.

Results

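The ciliary and axonemal genes measured here are every gene of the table whose symbol begins with IFT, BBS, DNAH, DNAI, DNALI, CFAP, RSPH or TEKT followed by a digit, together with DNAJB13. They number 77 of the 17023 genes. Of these, 52 build or drive the motile axoneme (14 dynein arm genes, 7 radial spoke genes and 31 CFAP genes), 5 are tektins and 20 serve transport along the cilium (14 IFT and 6 BBS genes). They were read in polyA RNA from 86 regions of 5 to 50 cells, cut by laser from frozen sections of gastrulating crab-eating macaque embryos (Geo-seq, a method for very small pieces of tissue). There were 36 regions from 7 sections of the E20 embryo, 15 from 4 sections of E18 embryo 1 and 35 from 6 sections of E18 embryo 2. The labels give no genotype or treatment for any of them. The tissue is given as embryo, sections are numbered within an embryo and sectors within a section, and neither a germ layer nor the starting point of the numbers is named.

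A cilium is a thin projection of the cell built on a ring of microtubule doublets, the axoneme. Most cells can carry an immotile primary cilium, which receives signals such as hedgehog, and nearly all cilia depend on intraflagellar transport: IFT complex B with kinesin carries cargo towards the tip, IFT complex A with dynein returns it, and the BBSome, made of BBS proteins, carries membrane proteins. Motile cilia also need dynein arms, radial spokes, tektins and many CFAP (cilia and flagella associated) proteins, most of which are switched on by the transcription factor FOXJ1 together with RFX factors. In the mouse and other vertebrates, single motile cilia beat on the node or its equivalent, the organiser at the anterior end of the primitive streak, where NOTO acts upstream of FOXJ1 and the leftward flow contributes to the left-right axis.

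The deposited values are TPM, a share of the reads scaled by transcript length, so levels of different genes can be set side by side. Without read counts the depth behind a value is unknown, and a value listed at 0 says only that the table lists 0. Genes at 1 TPM or more numbered 6194 to 10950 per region at E20, 7815 to 11516 in E18 embryo 1 and 11091 to 13958 in E18 embryo 2. Within E20, the median was 10523 genes in the 8 regions of sections 6 and 7 and 8452 in the 28 regions of sections 1 to 5. Mitochondrially encoded genes held a median of 17.5% of the summed TPM at E20, 15.7% in E18 embryo 1 and 29.4% in E18 embryo 2. A single region stood apart: sector 3 of section 5 of E18 embryo 2 held the most genes of all regions (13958) and the highest value of 40 of the 77 genes over all 86 regions. Some results below are also given without it. Each region is a mixture, and fewer cells of a type and less RNA per cell cannot be told apart.

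Transport genes were read nearly everywhere, whereas in the median region of the E20 embryo and E18 embryo 1 most axonemal genes were below 1 TPM. The number of axonemal and tektin genes at 1 TPM or more in the median region was 14 at E20, 16 in E18 embryo 1 and 32 in E18 embryo 2. At 5 TPM or more it was 7, 9 and 11. All 20 transport genes reached 1 TPM in at least 43 of the 86 regions, with a median of 80.5 regions. Of the 57 axonemal and tektin genes 15 did so, with a median of 26 regions. Among these, 0 of 5 tektins and 2 of 14 dynein arm genes were that broad, with medians of 23 and 21.5 regions. The median gene's mean level was 10.2 TPM at E20, 10.4 in E18 embryo 1 and 15.1 in E18 embryo 2 for transport, and 0.510, 0.673 and 2.02 TPM in the same embryos for the axonemal and tektin genes. CFAP20, CFAP36, IFT20, IFT27, IFT74 and IFT88 were at 1 TPM or more in all 86 regions.

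**Figure D1:**
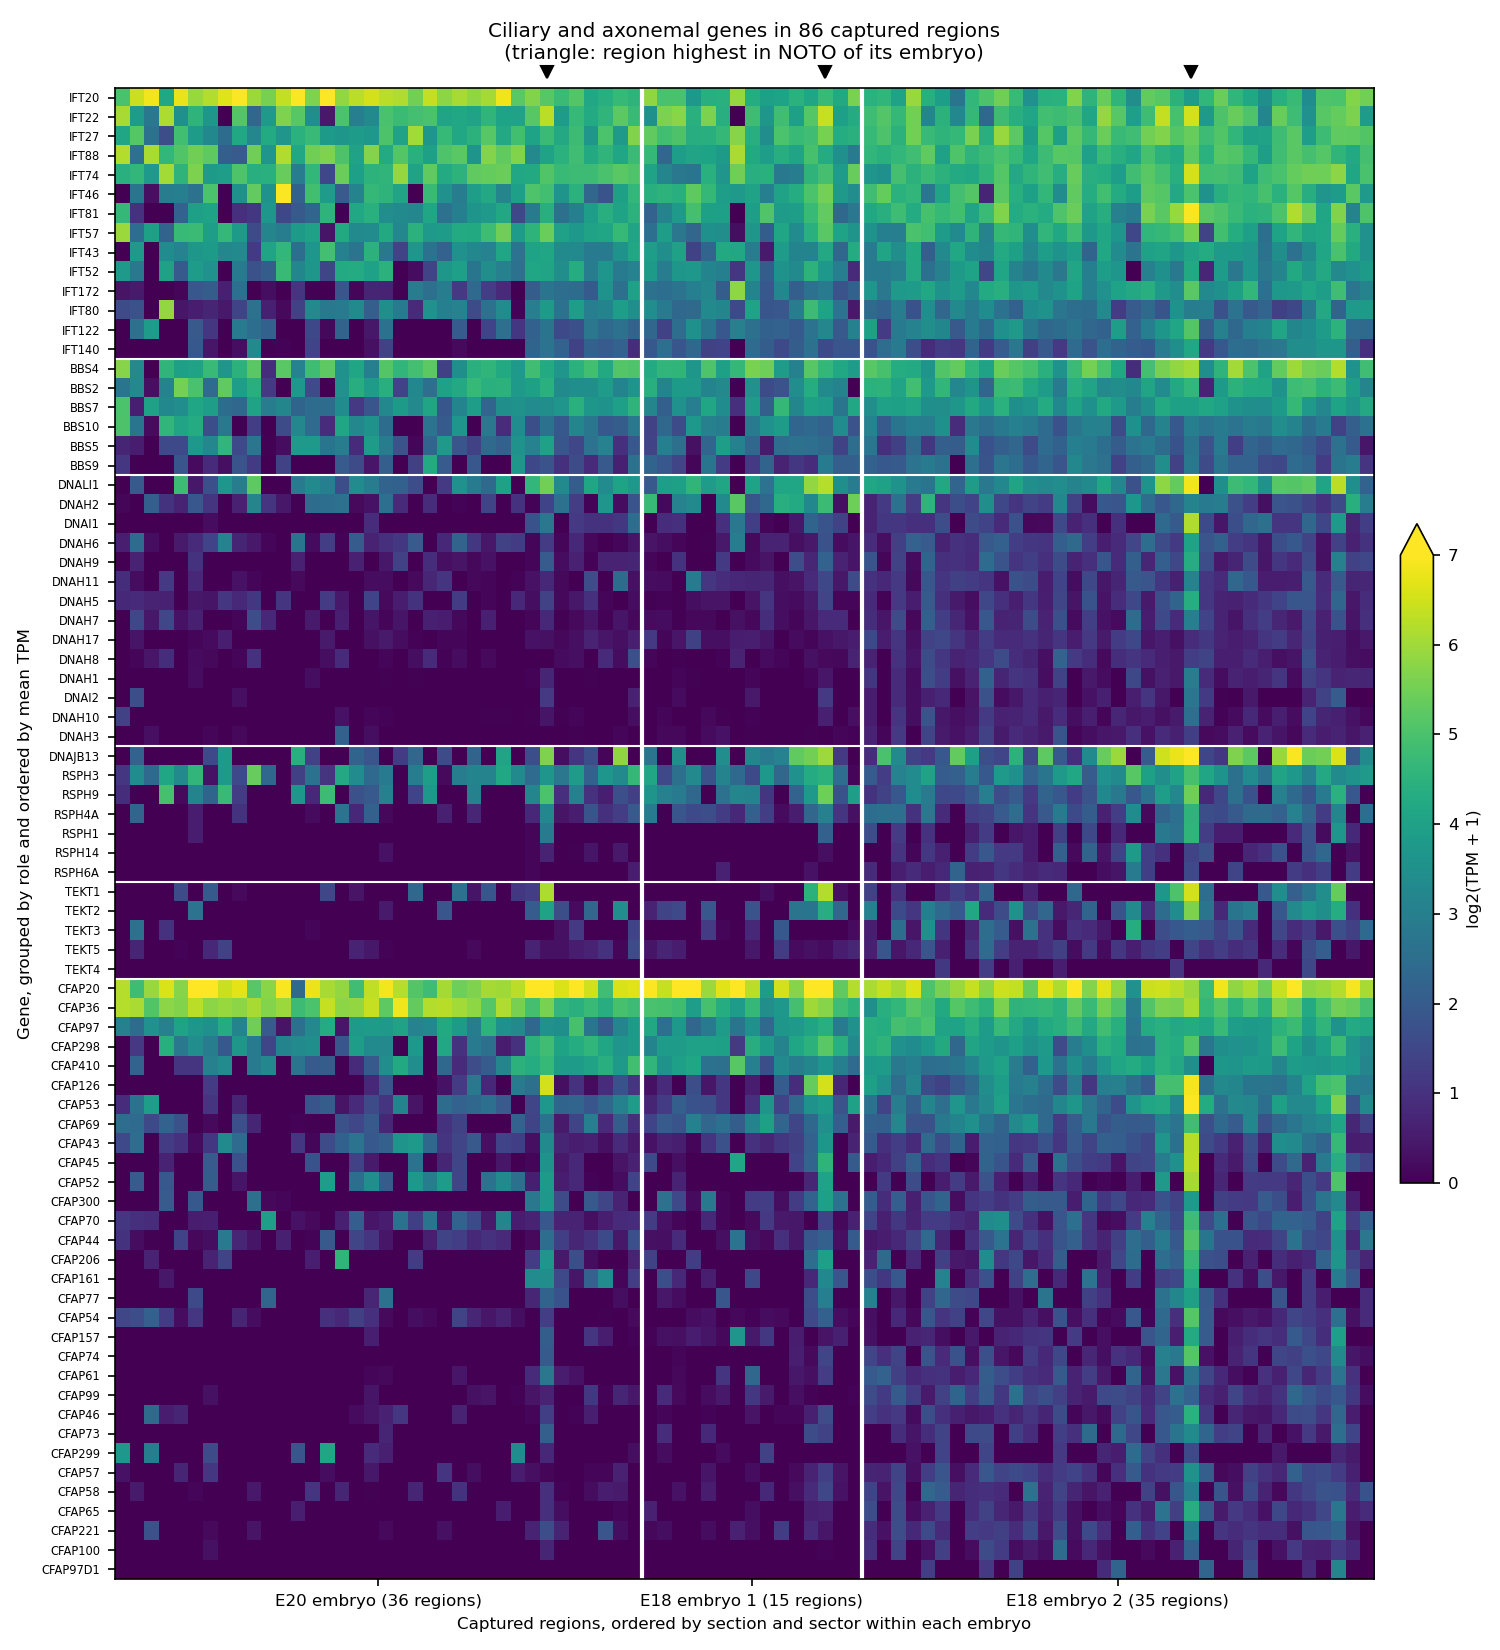
Level of each of the 77 genes (rows, grouped by role and ordered by mean) in each of the 86 regions (columns, by embryo and then section and sector), as log2(TPM + 1) with the colour capped at 7. Triangles mark the region of each embryo with the most NOTO; the transport rows at the top are coloured in nearly all columns, and most rows below DNALI1 are dark apart from a few columns.

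Among the complex B genes, IFT20, which also sits at the Golgi and sorts membrane cargo to the cilium, lay between 17.04 and 135 TPM at E20 with a median of 59.996. In E18 embryo 1 it lay between 12.4 and 58.3 (median 20.8) and in E18 embryo 2 between 5.55 and 59.2 (median 23.2). The embryos overlapped, but most E20 regions stood above both E18 medians. IFT88, a core protein without which cilia are not built, had a lowest, median and highest level of 3.05, 26.9 and 71.6 TPM at E20, 3.93, 15.9 and 68.8 in E18 embryo 1, and 13.9, 25.9 and 37.8 in E18 embryo 2. IFT81, part of the tubulin-binding module, had 0, 8.77 and 24.5 TPM at E20, 0, 13.9 and 39.2 in E18 embryo 1, and 6.52, 26.4 and 122 in E18 embryo 2. These ranges overlapped between the embryos, and the top value of IFT81 came from the region that stood apart. Of complex A, which carries cargo back to the base, IFT140 had 0, 0.0116 and 9.13 TPM at E20, 0, 2.68 and 5.06 in E18 embryo 1, and 0.869, 3.71 and 16.9 in E18 embryo 2. In the RefSeq table for this species IFT140 overlaps TELO2, and the log2 levels of both had r = 0.72 across the 86 regions, as a description over regions that share embryos and libraries of unequal gene numbers. Whether the counting used strand is not stated, so reads of the pair could not be separated, and the same holds for DNAI1 with ENHO (r = 0.51).

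The 6 BBS genes each reached 1 TPM in most regions, from 63 to 84 of the 86. BBS4, which joins the BBSome late and links it to the centriolar satellites, had a lowest, median and highest level of 0, 21.1 and 52.2 TPM at E20, 7.44, 23.1 and 47.4 in E18 embryo 1, and 0.872, 30.3 and 72.5 in E18 embryo 2. BBS2, a core subunit, had 0, 11.8 and 45.2 TPM at E20, 0, 8.84 and 19.8 in E18 embryo 1, and 0.597, 15.97 and 29.1 in E18 embryo 2. For both genes the 3 embryos overlapped over most of their ranges.

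Of the dynein arm genes, DNALI1, a light intermediate chain of the inner arms, was the most abundant, with a lowest, median and highest level of 0, 6.31 and 44.5 TPM at E20, 0, 14.7 and 73.3 in E18 embryo 1, and 0, 10.9 and 115 in E18 embryo 2. The outer-arm heavy chains were close to 0 in most regions. DNAH5 reached 1.67 TPM at E20, 1.77 in E18 embryo 1 and 19.6 in E18 embryo 2, and DNAH9 reached 3.01, 3.57 and 19.3 TPM in those embryos. The outer-arm intermediate chain DNAI1 had medians of 0, 0.858 and 1.16 TPM and highest levels of 5.89, 5.83 and 71.5 TPM in the E20 embryo, E18 embryo 1 and E18 embryo 2. DNAH2, an inner-arm heavy chain, was the exception in being spread over many regions, with a lowest, median and highest level of 0, 0.817 and 11.5 TPM at E20, 0, 9.10 and 43.2 in E18 embryo 1, and 0.176, 2.32 and 22.7 in E18 embryo 2.

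DNAJB13, a heat shock family protein of the radial spoke, had a lowest, median and highest level of 0, 0.138 and 56.3 TPM at E20, 0, 6.23 and 61.6 in E18 embryo 1, and 0, 9.25 and 169 in E18 embryo 2. RSPH9, of the spoke head, had 0, 1.19 and 31.6 TPM at E20, 0, 6.33 and 43.2 in E18 embryo 1, and 0, 2.78 and 43.2 in E18 embryo 2. RSPH1, also of the spoke head, had a median of 0 in the E20 embryo and in E18 embryo 1, with highest values of 6.35 and 3.44 TPM, against a median of 0.445 and a highest value of 23.1 in E18 embryo 2. RSPH14 and RSPH6A stayed below 1 TPM in every region of the E20 embryo and of E18 embryo 1. RSPH3 was read more evenly, a stalk protein with medians of 7.22, 4.96 and 10.1 TPM in the E20 embryo, E18 embryo 1 and E18 embryo 2. TEKT1, which lies inside the axonemal doublets, had a median of 0 in the E20 embryo and E18 embryo 1 and 0.622 TPM in E18 embryo 2, with highest values of 69.6, 72.1 and 90.4 TPM. TEKT4 and CFAP97D1 were listed at 0 in all regions of the E20 embryo and of E18 embryo 1.

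CFAP20 and CFAP36 did not share that pattern. CFAP20, a protein of the doublet's inner junction that non-ciliated cells also make, had a lowest, median and highest level of 4.36, 73.7 and 150 TPM at E20, 13.7, 90.1 and 148 in E18 embryo 1, and 10.7, 69.2 and 130 in E18 embryo 2. CFAP36 had 19.6, 53.9 and 114 TPM at E20, 9.96, 27.4 and 63.3 in E18 embryo 1, and 6.58, 29.7 and 68.4 in E18 embryo 2. CFAP126 is more typical of the rest: known in the mouse as Flattop, a FOXJ1 target that positions basal bodies, it had a median of 0, 0.671 and 6.81 TPM and a highest value of 90.2, 90.6 and 117 TPM in the E20 embryo, E18 embryo 1 and E18 embryo 2. Its level was over 90 TPM in 1 region of each embryo.

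In each embryo the summed level of the axonemal genes was highest in the region that held the most NOTO, called NOTO-rich below. That region was sector 2 of section 6 at E20, sector 2 of section 4 in E18 embryo 1 and sector 3 of section 5 in E18 embryo 2, and in 3 of 3 embryos it was also the region with the most FOXJ1. It was picked by NOTO after the values had been seen, so what follows is a description with no test. NOTO stood at 26.5 TPM there at E20 against at most 0.532 in the other regions, at 56.5 in E18 embryo 1 against at most 5.85, and at 47.7 in E18 embryo 2 against at most 13.2. FOXJ1 stood at 33.1 TPM there at E20 against a median of 1.75 and at most 13.6 elsewhere, at 87.3 in E18 embryo 1 against 0.433 and at most 19.1, and at 110 in E18 embryo 2 against 0.957 and at most 44.96. The organiser genes FOXA2 and CHRD were also high in these regions, with FOXA2 at 100 TPM at E20, 128 in E18 embryo 1 and 262 in E18 embryo 2, and CHRD at 408, 408 and 2557 TPM. FOXA2 was higher still elsewhere in E18 embryo 2, at up to 335 TPM. Of 12 markers of node and definitive endoderm, NOTO itself included, 7 peaked there at E20, 4 in E18 embryo 1 and 2 in E18 embryo 2. Of 12 primitive streak markers, 2, 6 and 0 did. The shares of all genes that peaked there were 3.55%, 7.91% and 3.56%. The median streak marker stood 3.32, 3.27 and 1.16 log2 units above its median of the other regions in the E20 embryo, E18 embryo 1 and E18 embryo 2. For yolk sac endoderm markers this difference was -9.95, 1.70 and -0.20, and for mesenchyme markers -3.70, -1.63 and -0.96. The E20 region was thus set against regions much richer in yolk sac endoderm markers, and the part of this in its contrasts was not tested. The labels do not name the tissue of these regions.

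Of the 77 genes, 22 had their highest value of the E20 embryo in its NOTO-rich region, against 3.55% of the 15216 genes that reached 1 TPM in at least 10 regions. In E18 embryo 1 the count was 37 of 77, against 7.91% of the 15216 genes, and in E18 embryo 2 it was 46 of 77, against 3.56%. Split by role, the axonemal and tektin genes gave 21, 32 and 39 of 57 in the E20 embryo, E18 embryo 1 and E18 embryo 2, and the transport genes 1, 5 and 7 of 20. The BBS genes gave 0, 1 and 0 of 6. In all 3 embryos together 16 of the 77 genes peaked there, against 0.493% of the 15216 genes: the dynein arm genes DNAH1, DNAH9 and DNALI1, the spoke head genes RSPH1, RSPH4A and RSPH9, the tektins TEKT1 and TEKT2, CFAP126, CFAP161, CFAP298, CFAP300, CFAP45, CFAP65 and CFAP74, and 1 transport gene, IFT22. A further 24 of the 77 peaked there in no embryo, 11 of them transport genes. A peak of a gene near 0 rests on small values. Of the 16, DNAH1 had a mean log2(TPM + 1) of 0.039 at E20 and 0.053 in E18 embryo 1. Its slope on the node and definitive endoderm score used below was 0.008 ± 0.048, which did not pass. CFAP65, with 0.068 and 0.148, and CFAP74, with 0.055 and 0.155, also had low means in these 2 embryos. These 3 regions also held many genes, with 10815 at 1 TPM or more at E20, 11111 in E18 embryo 1 and 13958 in E18 embryo 2, which were ranks 2, 2 and 1 of their embryos. The part of these numbers in the counts was not tested.

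CFAP126 stood at 90.2 TPM in the NOTO-rich region at E20 against 0 to 6.21 elsewhere, at 90.6 in E18 embryo 1 against 0 to 39.6, and at 117 in E18 embryo 2 against 1.16 to 31.4. TEKT1 stood at 69.6 TPM there at E20 against 0 to 5.12, at 72.1 in E18 embryo 1 against 0 to 21.5, and at 90.4 in E18 embryo 2 against 0 to 39.4. For both genes this region did not overlap with the others of its embryo. RSPH1 showed the same split at lower levels: 6.35 TPM at E20 against at most 0.444 elsewhere, 3.44 in E18 embryo 1 where all other regions were listed at 0, and 23.1 in E18 embryo 2 against at most 11.8. DNAJB13 stood at 48.9 TPM at E20, where another region reached 56.3, at 61.6 in E18 embryo 1 against at most 44.7, and at 169 in E18 embryo 2 against at most 121. IFT22, a small GTPase of complex B, stood at 76.1 TPM at E20 against at most 69.3 elsewhere, at 82.5 in E18 embryo 1 against at most 53.0, and at 91.1 in E18 embryo 2 against at most 80.5. Its margin over the next region was thus narrow at E20 and in E18 embryo 2, unlike that of CFAP126.

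Not every gene peaked there. IFT20 stood at 35.1 TPM in the NOTO-rich region of the E20 embryo (rank 28 of 36 regions), 25.6 in that of E18 embryo 1 (rank 6 of 15) and 13.4 in that of E18 embryo 2 (rank 30 of 35). IFT88 stood at 15.4 TPM (rank 28), 18.7 (rank 5) and 36.9 (rank 2) in the same regions. DNAH2 stood at 1.67 TPM (rank 12), 26.2 (rank 3) and 7.78 (rank 6). At E20, all 3 thus ranked well below the top in the region where CFAP126 and TEKT1 peaked.

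**Figure D2:**
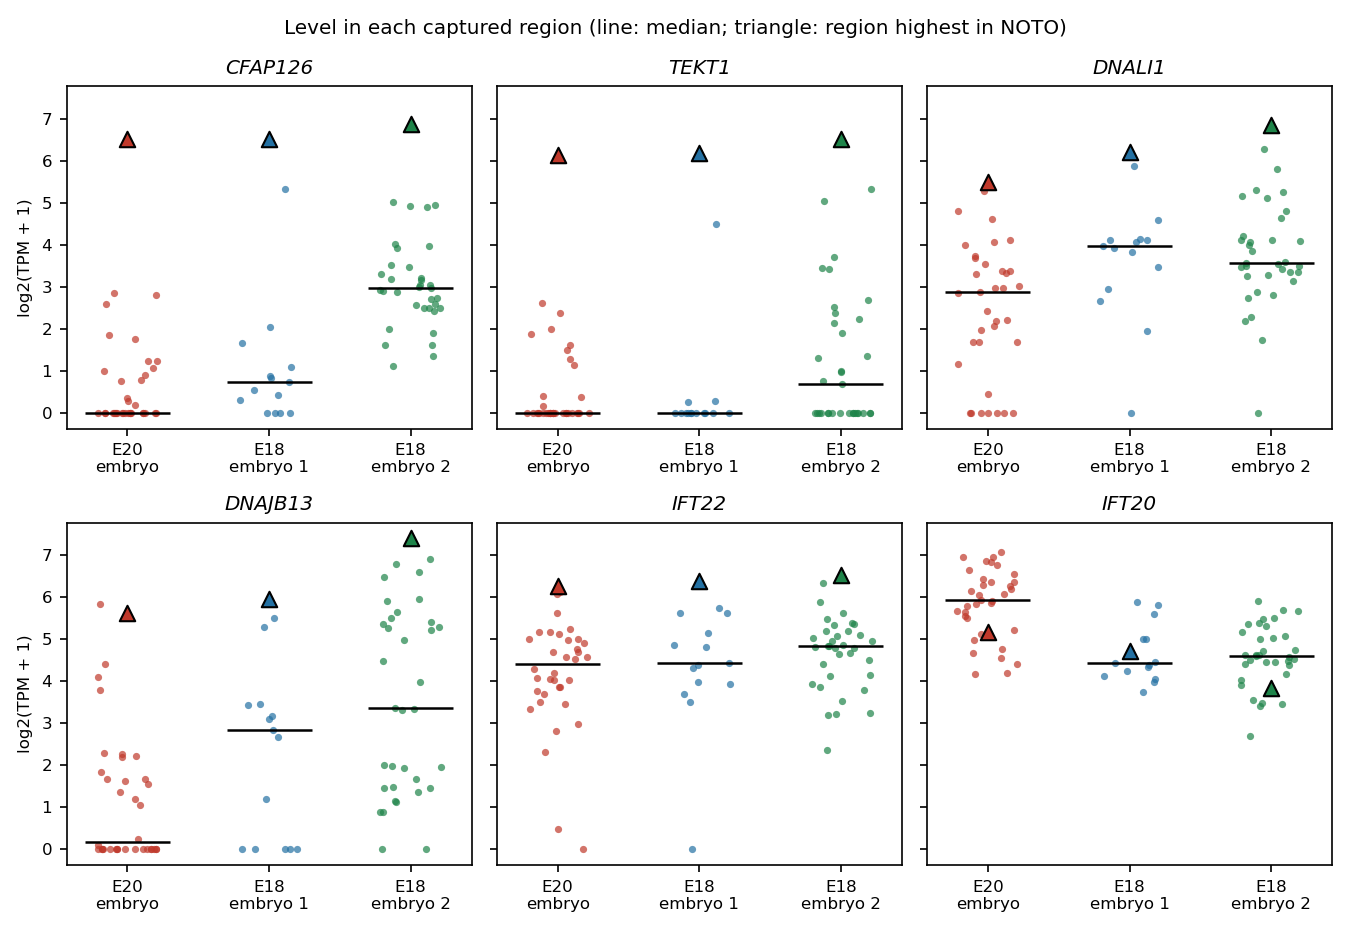
Level in each region, as log2(TPM + 1), of 4 axonemal genes (CFAP126, TEKT1, DNALI1, DNAJB13) and 2 transport genes (IFT22, IFT20) in the E20 embryo (36 regions), E18 embryo 1 (15) and E18 embryo 2 (35). Points are regions, lines medians and triangles the region with the most NOTO of its embryo, which lies above all others for CFAP126, TEKT1 and DNALI1 and among or below the others for IFT20.

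Summed over 55 axonemal and tektin genes, leaving out CFAP20 and CFAP36, the level had a lowest, median and highest value of 10.3, 73.5 and 528 TPM at E20, 67.9, 105 and 641 in E18 embryo 1, and 106, 162 and 1587 in E18 embryo 2. The highest region of each embryo was its NOTO-rich one, and the second highest reached 154, 311 and 669 TPM in the E20 embryo, E18 embryo 1 and E18 embryo 2. The transport sum moved far less, with 173, 288 and 484 TPM at E20, 177, 247 and 447 in E18 embryo 1, and 187, 331 and 722 in E18 embryo 2. In E18 embryo 2 the signal was not confined to a single region: sector 6 of section 6 held 669 TPM of axonemal transcripts with 44.96 TPM of FOXJ1 and 13.2 of NOTO, and sectors 1 and 2 of section 5 held 430 and 407 TPM.

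FOXJ1 was also read in E20 regions with NOTO and CCNO listed at 0. Next in FOXJ1 after the NOTO-rich region came sector 2 of section 5, with 13.6 TPM of FOXJ1 and 93.3 TPM of axonemal transcripts, and sector 4 of section 1, with 12.97 and 93.6 TPM. Both sums lay above the E20 median of 73.5 TPM and below the second highest E20 sum of 154 TPM. CCNO, a cyclin-like protein needed in mammals to amplify centrioles in multiciliated cells, was listed at 0 in all E20 regions but the NOTO-rich one, where it stood at 24.6 TPM.

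**Figure D3:**
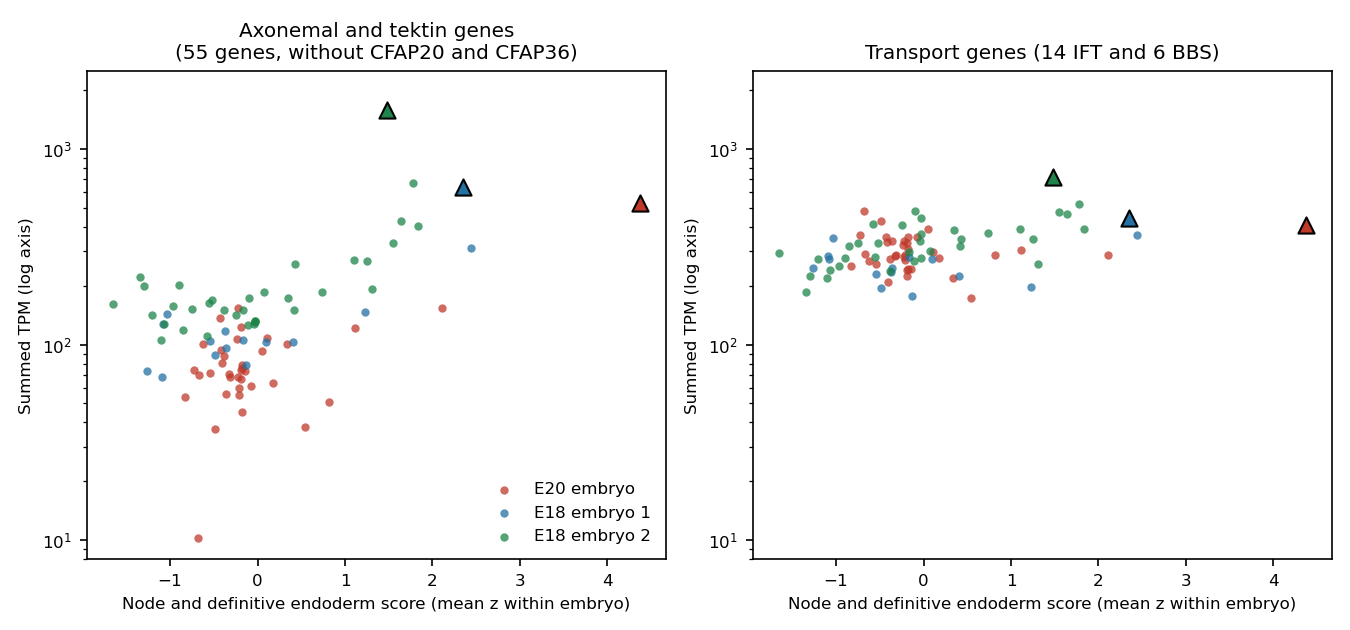
Summed TPM per region (log axis) of the 55 axonemal and tektin genes (left) and the 20 transport genes (right) against the node and definitive endoderm score of the region, with the E20 embryo in red, E18 embryo 1 in blue and E18 embryo 2 in green. Triangles mark the NOTO-rich regions, at 528, 641 and 1587 TPM on the left for these 3 embryos, while the transport sums stay between 173 and 722 TPM.

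Other genes of the motile axoneme peaked in the NOTO-rich regions too, where 3.55% of all genes did so at E20, 7.91% in E18 embryo 1 and 3.56% in E18 embryo 2. Of 15 measured genes that assemble or dock dynein arms, 6 had their embryo's highest value there at E20, 8 in E18 embryo 1 and 12 in E18 embryo 2. ZMYND10, a cytoplasmic dynein assembly factor, stood at 25.8 TPM at E20 against at most 2.72 elsewhere, at 40.1 in E18 embryo 1 against at most 11.4, and at 87.0 in E18 embryo 2 against at most 21.7. Of 16 genes of the central pair, doublet lumen or tip, 10, 10 and 13 peaked there in the E20 embryo, E18 embryo 1 and E18 embryo 2. For the cilium's gate and base, which primary cilia share, the counts were 2, 2 and 6 of 20 transition zone genes and 0, 0 and 3 of 13 basal body genes, and for further transport genes 1, 7 and 7 of 22. Hedgehog pathway genes gave 1, 1 and 0 of 16. At those shares of all genes, counts of 0 to 2 in such short lists cannot be told from the background. The difference between these lists was not tested.

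Markers of multiciliated cells were mixed in these regions. Of 14, 4 peaked there at E20, 6 in E18 embryo 1 and 5 in E18 embryo 2. TPPP3, a tubulin-binding protein of airway ciliated cells, stood at 92.1 TPM at E20, 65.0 in E18 embryo 1 and 125 in E18 embryo 2. The genes that set off the multiciliated programme stood low in TPM, with GMNC at 0.0755, 0.0968 and 0.136 TPM and MCIDAS at 0, 1.37 and 3.26 TPM in the E20 embryo, E18 embryo 1 and E18 embryo 2, and SNTN, a protein of the tip of airway cilia, was listed at 0 in all 3 regions. Of markers of other possible sources, 0, 0 and 1 of 8 sperm genes, 0, 0 and 0 of 5 trophoblast genes and 0, 0 and 0 of 10 immune and decidual genes peaked there, which at the shares of all genes above says little either way. The median immune and decidual gene stood 0.74 log2 units above its median of the other regions in E18 embryo 2, and -0.04 and -0.10 from it in the E20 embryo and E18 embryo 1. The part of these markers in the result was not tested. PAEP, made by the secretory uterine lining, stood at 0.796 TPM at E20 and at 0 in both E18 embryos. Of 9 measured genes of flow sensing and left-right asymmetry, 2 peaked there at E20, 2 in E18 embryo 1 and 1 in E18 embryo 2. Counts this small in a short list cannot be told from the background. The channel gene PKD1L1, known in the mouse to read nodal flow, peaked there in all 3 embryos, at 0.482, 0.290 and 5.10 TPM. Its levels at E20 and in E18 embryo 1 are near 0. DAND5, the NODAL antagonist that flow represses, was listed at 0 in all 3 regions.

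The regression on a score of node and definitive endoderm markers asked whether ciliary genes followed organiser and endoderm markers over all regions. The score is the mean standardised log2 level of 12 markers within an embryo (FOXA2, FOXA1, SOX17, CER1, LHX1, GSC, CHRD, NOG, HHEX, CXCR4, SHH and NOTO), and slopes are log2(TPM + 1) per SD of it, from limma with embryo as a block and Benjamini-Hochberg adjustment over 15216 genes. Of the 70 ciliary genes tested, 34 rose with the score and 0 fell, against 12.3% of all genes that rose and 2.53% that fell (14.8% together). The median slope was 0.25 for the 70 genes and 0.07 for all genes. Regions of an embryo are not independent animals, so these p-values, like those of the other region-level regressions below, are too small. The 7 genes not tested were DNAH3, DNAH10, DNAI2, CFAP100, CFAP97D1, RSPH6A and TEKT4, which reached 1 TPM in fewer than 10 regions.

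By role, 28 of 50 axonemal and tektin genes, 6 of 14 IFT genes and 0 of 6 BBS genes rose. DNAJB13 rose by 1.56 ± 0.14 (SE, limma adjusted p 1.46e-15), with slopes of 1.15 at E20, 1.56 in E18 embryo 1 and 1.93 in E18 embryo 2. TEKT1 rose by 1.05 ± 0.13 (adjusted p 1.06e-09), CFAP126 by 0.97 ± 0.11 (adjusted p 6.01e-11) and DNALI1 by 0.87 ± 0.13 (adjusted p 4.14e-07). Each of these had a positive slope in 3 of 3 embryos. Among the outer-arm genes, DNAI1 rose by 0.45 ± 0.09 and DNAH9 by 0.25 ± 0.07, and among the spoke heads RSPH9 by 0.63 ± 0.14 and RSPH1 by 0.42 ± 0.08. Of the CFAP genes 18 of 29 rose, among them CFAP45 by 0.59 ± 0.11, CFAP53 by 0.50 ± 0.12 and CFAP52 by 0.49 ± 0.14, proteins inside the doublets whose loss disturbs left-right asymmetry in humans. Of the transport genes, IFT140 rose by 0.48 ± 0.09, IFT22 by 0.45 ± 0.12, IFT57 by 0.44 ± 0.10 and IFT81 by 0.44 ± 0.13. IFT20 had a slope of -0.07 ± 0.08, IFT88 of -0.03 ± 0.09 and DNAH2 of 0.02 ± 0.13, none of which passed the test.

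**Figure D4:**
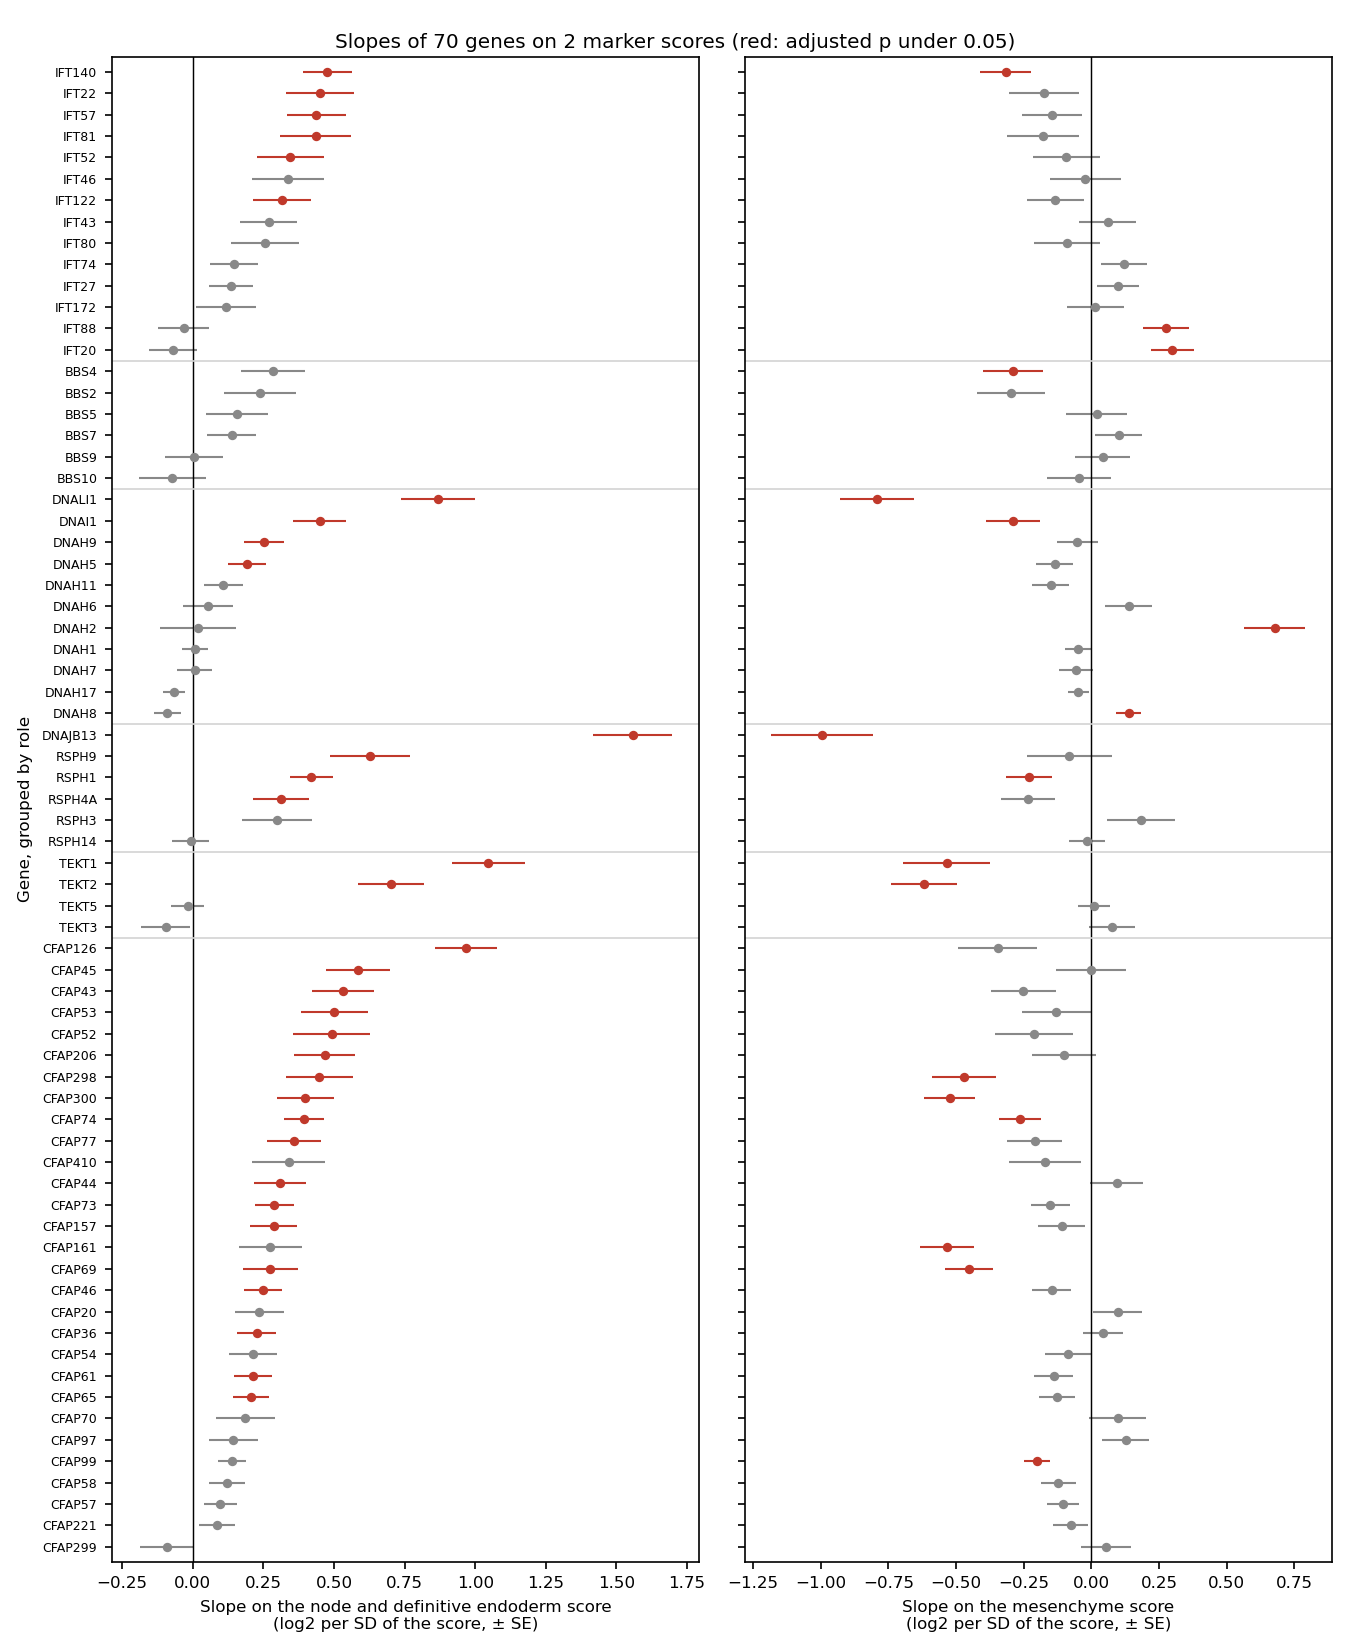
Slope (points) with its SE (bars) of each of the 70 genes tested on the node and definitive endoderm score (left) and on the mesenchyme score (right), in log2(TPM + 1) per SD of the score, grouped by role. Red marks an adjusted p under 0.05, which 34 genes had on the left, all above 0, and 18 on the right, 4 above and 14 below 0.

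Without the 3 NOTO-rich regions 11 of the 70 passed, against 11.9% of all genes under that setting, so most of the excess over all genes was gone. Without sector 3 of section 5 of E18 embryo 2 alone 32 passed, against 15.5%, and without E18 embryo 2 as a whole 22, against 4.72%. With the slopes of the 3 embryos tested as 3 values, 0 of 70 passed (limma, 34 at an unadjusted p under 0.05), in a design in which no gene at all passed. Mesenchyme markers moved the other way along this score, with 9 of 14 lower, and primitive streak markers the same way, with 10 of 12 higher; their part in the ciliary result was not tested.

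The regulators reported here moved unevenly. FOXJ1 rose with the score by 0.96 ± 0.15 (limma adjusted p 4.07e-07), NOTO, scored without itself, by 0.73 ± 0.11, RFX2 by 0.38 ± 0.09 and RFX3 by 0.34 ± 0.11. RFX1, RFX4, RFX7, TP73, MCIDAS, GMNC and MYB did not pass the test. Of the dynein assembly and docking genes 11 of 15 rose, led by DRC1, a scaffold of the dynein regulatory complex, at 0.79 ± 0.12 and ZMYND10 at 0.69 ± 0.11, and of the central pair and tip genes 12 of 16. Transition zone genes gave 8 of 20, further transport genes 6 of 22, basal body genes 1 of 13 (CEP19) and hedgehog genes 3 higher (SHH, BOC and IHH) and 1 lower (GLI3) of 15. Of the multiciliated cell markers 6 of 12 rose, among them TPPP3 by 0.96 ± 0.15 and CCNO by 0.82 ± 0.11, and of the sperm markers 0 rose and 1 fell of 6.

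Along the epiblast, mesenchyme and yolk sac scores, IFT20 moved against most axonemal genes that passed. With the epiblast score 15 of 70 rose and 3 fell, against 26.1% of all genes that rose and 12.4% that fell (38.6% together). CFAP161, a protein of the doublet lumen, rose by 0.63 ± 0.09, CFAP298, which takes part in dynein arm assembly, by 0.61 ± 0.11 and DNALI1 by 0.58 ± 0.15, whereas IFT20 fell by 0.43 ± 0.07 per SD (SE), DNAH6 by 0.39 ± 0.08 and CFAP36 by 0.21 ± 0.07 on the log2 scale. The share of members called is under that of all genes. The split was 10 higher and 4 lower after quantile normalization (39.1% of all genes called) and 6 and 6 without the E20 embryo (27.7% of all genes). With the primitive streak score 13 of 70 rose and 0 fell, against 15% of all genes that rose and 2.94% that fell (17.9% together), led by DNAJB13 at 1.38 ± 0.16, TEKT2 at 0.75 ± 0.11 and DNALI1 at 0.62 ± 0.15. Without the E20 embryo 3 were called (4.46% of all genes), without the NOTO-rich regions 7 (12.2%) and after quantile normalization 6 (12% of all genes). With mitochondrially encoded genes left out 9 rose and 1 fell, against 13.1% of all genes called.

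With the mesenchyme score 4 genes rose and 14 fell of 70, against 14.8% of all genes that rose and 16.5% that fell (31.2% together). The share of the 70 called was under that of all genes, so the single genes below are given as a description. DNAJB13 fell by 0.99 ± 0.19 per SD, DNALI1 by 0.79 ± 0.14, TEKT2 by 0.62 ± 0.12 and TEKT1 by 0.53 ± 0.16, with a negative slope in 3 of 3 embryos for each. DNAH2 rose by 0.68 ± 0.11 (limma adjusted p 8.41e-07), with slopes of 0.50 at E20, 1.43 in E18 embryo 1 and 0.50 in E18 embryo 2. IFT20 rose by 0.30 ± 0.08, IFT88 by 0.28 ± 0.09 and DNAH8 by 0.14 ± 0.05. Of the transport genes, 2 rose and 2 fell (IFT140 and BBS4).

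With the yolk sac endoderm score 2 genes rose and 8 fell of 70, against 8.08% of all genes that rose and 16.4% that fell (24.5% together). IFT20 rose by 0.31 ± 0.08 and CFAP36 by 0.24 ± 0.07, and IFT172, of complex B, fell by 0.42 ± 0.10, CFAP161 by 0.40 ± 0.11 and IFT140 by 0.36 ± 0.09. Without the E20 embryo 0 passed (limma, 2 at an unadjusted p under 0.05), as did 0.171% of all genes, and with a region's number of detected genes as a further term 5 did, against 16.7%. FOXJ1 rose with this score by 0.56 ± 0.17 while none of DNAJB13, TEKT1 and CFAP126 passed. With the amnion score 4 rose and 3 fell, against 14% of all genes that rose and 5.4% that fell (19.4% together). DNAH2 rose by 0.46 ± 0.12, IFT172 by 0.34 ± 0.10, IFT27 by 0.21 ± 0.08 and DNAH8 by 0.17 ± 0.04, and DNAJB13 fell by 0.72 ± 0.20, CFAP43 by 0.35 ± 0.12 and CFAP36 by 0.19 ± 0.07. That split was 2 higher and 10 lower after quantile normalization (21.8% of all genes called). It was 9 and 1 with mitochondrially encoded genes left out (23.4% of all genes), and 3 and 14 without the E20 embryo (29.7%).

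The section trend asked whether the genes changed along the section numbers, put on a scale of 0 (first section of an embryo) to 1 (last). Towards the higher numbers 14 of 70 rose and 0 fell (limma), against 8.81% of all genes that rose and 1.89% that fell (10.7% together). DNAJB13 rose by 1.80 ± 0.58 log2 units over this span, CFAP126 by 1.60 ± 0.39, TEKT1 by 1.56 ± 0.45, CFAP53 by 1.53 ± 0.33 and DNALI1 by 1.39 ± 0.43. Of transport, IFT81, IFT140, IFT172 and IFT74 rose, by 1.09 ± 0.36, 1.00 ± 0.26, 0.84 ± 0.29 and 0.79 ± 0.23. The remaining calls were CFAP410, DNAI1, CFAP161, CFAP44 and CFAP157. The section medians of the axonemal sum were 66.5, 69.98, 75.8, 66.0, 72.0, 115 and 119 TPM for E20 sections 1 to 7, 103, 103, 105 and 214 for E18 embryo 1, and 161, 153, 150, 174, 187 and 263 for E18 embryo 2. In each embryo the highest section median was that of the last section.

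The calls of the section trend depend on which embryos and regions enter, and so do those of all genes. Without the E20 embryo 0 passed (limma, 14 at an unadjusted p under 0.05), against 0.0591% of all genes. With E20 sections 6 and 7 blocked apart from 1 to 5, 0 passed (limma, 13 at an unadjusted p under 0.05), against 0.0394% of all genes. Without the 3 NOTO-rich regions 6 passed, against 7.4% of all genes. With a region's number of detected genes as a further term 4 did, against 3.3%. Without E18 embryo 2 there were 8 higher and 1 lower, against 15.8% together. Without sector 3 of section 5 of E18 embryo 2 alone, 12 of the 14 calls were kept, with 10.5% of all genes called. Along the sector numbers within a section 0 of 70 passed (limma, 7 at an unadjusted p under 0.05), against 2.48% of all genes that rose and 0.762% that fell (3.24% together). TEKT1 had a slope of -0.92 ± 0.41 and CFAP161 of -0.86 ± 0.27 from the lowest to the highest sector number, with adjusted p of 0.222 and 0.0586.

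In the E20 embryo, 1 ciliary gene was higher and 1 lower than in the E18 embryos, both of complex B. The comparison used the mean of each embryo, 1 at E20 and 2 at E18. Stage, the single E20 embryo and the mix of tissue captured from each embryo thus cannot be told apart. The SE is limma's trend of the E18 spread over all genes (infinite prior degrees of freedom), not the gene's own spread, and holds nothing on variation among E20 embryos. Of 70 genes 2 passed, against 2.64% of all genes that were higher and 8.75% that were lower (11.4% together), so the share was below that of all genes. IFT20 was higher by 1.21 ± 0.43 (SE, limma adjusted p 0.0479), with mean log2(TPM + 1) of 5.83 at E20, 4.66 in E18 embryo 1 and 4.60 in E18 embryo 2. IFT172 was lower by -1.92 ± 0.66 (adjusted p 0.0362), with 1.36 at E20, 2.80 in E18 embryo 1 and 3.77 in E18 embryo 2. The median difference was -0.48 over the 70 genes and -0.44 over all genes, and after quantile normalization -0.06 over all genes. A gene could pass the filter through regions of E18 embryo 2 alone, which bears on these medians.

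The E20 sections were not alike in either gene. Within the E20 embryo the slope on the yolk sac endoderm score was 0.45 for IFT20 and -0.54 for IFT172. These have the signs of the stage differences, and the part of tissue in those differences was not tested. Median IFT20 was 85.7, 60.2, 77.1, 61.6 and 66.1 TPM in sections 1 to 5 and 34.7 and 21.5 TPM in sections 6 and 7, against section medians of 19.3 to 31.05 TPM in E18 embryo 1 and 21.1 to 28.5 in E18 embryo 2. Section 7 alone thus lay within the E18 range. Median IFT172 was 0.409, 0.0267, 0.600, 4.62 and 0.791 TPM in E20 sections 1 to 5 and 4.67 and 7.98 TPM in sections 6 and 7, against 4.35 to 7.99 in E18 embryo 1 and 12.2 to 15.6 in E18 embryo 2. After quantile normalization 0 ciliary genes passed (limma, 4 at an unadjusted p under 0.05), against 8.54% of all genes. With mitochondrially encoded genes left out 0 passed (limma, 3 at an unadjusted p under 0.05), against 5.56% of all genes. RFX3 was lower at E20 by -2.01 ± 0.66 (adjusted p 0.0269), and FOXJ1 differed by 0.08 ± 0.81, which did not pass.

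**Figure D5:**
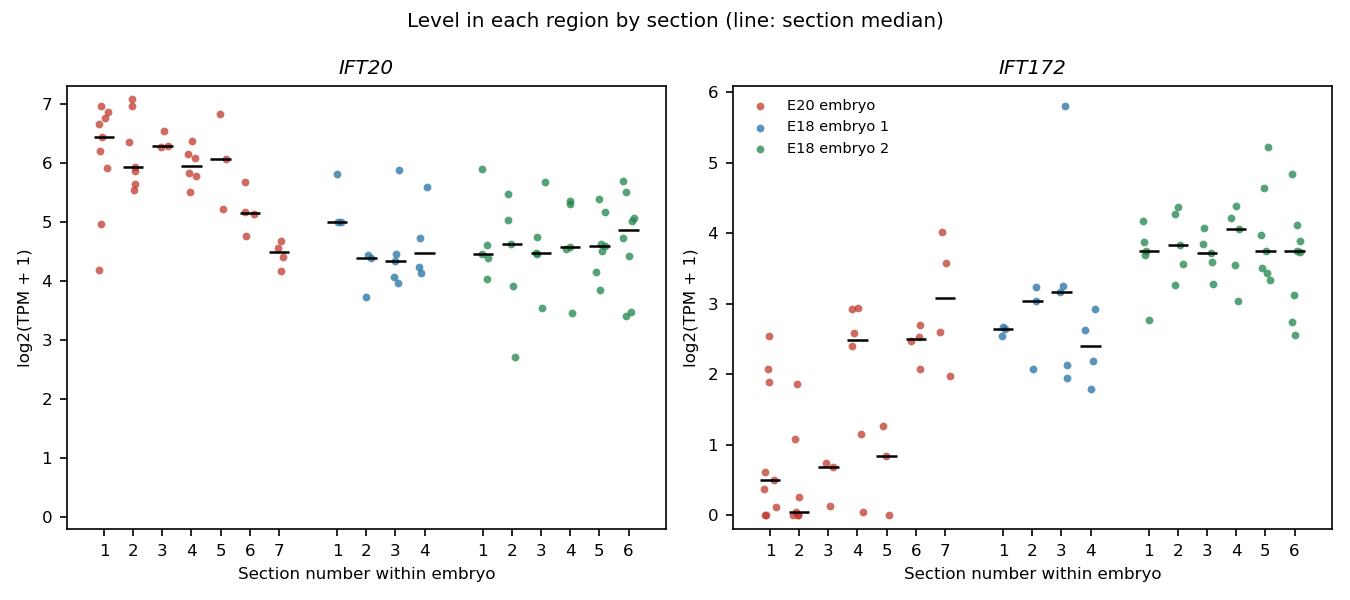
Level in each region, as log2(TPM + 1), of IFT20 (left) and IFT172 (right) by section, with the E20 embryo in red, E18 embryo 1 in blue and E18 embryo 2 in green; points are regions and lines section medians. IFT20 lies highest in E20 sections 1 to 5 and IFT172 lowest in E20 sections 1, 2, 3 and 5.

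E18 embryo 2 read more of these genes than E18 embryo 1, as it did of all genes. The median difference of embryo 2 minus embryo 1 was 0.61 on the log2 scale over the 70 genes and 0.41 over all genes. No test was made because 1 embryo stands on each side. Without sector 3 of section 5 of embryo 2 these medians were 0.53 and 0.40. At least 1 log2 unit higher in embryo 2 were 9 of the 70 (12.9%), against 10.9% of all genes, and 1 was at least 1 lower. The largest were CFAP126 at 1.76, CFAP53 and CFAP70 at 1.23 each, DNAJB13 at 1.18 and IFT81 at 1.17, and DNAH2 was lower, at -1.13. E18 embryo 2 also held more detected genes per region, and after quantile normalization the median was 0.08 over the 70 genes and 0.03 over all genes. The filter counts regions of all embryos, so a gene can pass it through E18 embryo 2 alone, as RSPH14 did. It thus favours genes high in that embryo, among the 70 as among all genes. The part of this in the difference was not tested.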

How the data were processed

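RNA was sequenced from 86 captured regions, which the labels place in 3 embryos. The deposited values are TPM per gene, computed by the authors; per the submitters' processing notes the tools were fastp, HISAT2 and StringTie, the genome build is not given in the sources used here, and no versions or coordinates are stated. Each column matched 1 sample label, with 0 left over. TPM keeps no counts, so no counting interval is given.

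Genes at 1 TPM or more in at least 10 regions (15216) were fitted as log2(TPM + 1) in R 4.3.3 with limma 3.58.1 (eBayes with trend), and p-values were adjusted by Benjamini-Hochberg over all of them at 0.05. The stage comparison used embryo means. The section trend and the 6 marker scores used regions with embryo as a block, and the sector trend used section within embryo as a block. A fold on this scale understates the change of low genes. Separate slopes for each embryo were compared with limma's moderated F test. Each marker list was scored without the gene tested. The fits were tested on simulated data. Tables and pictures were made with python 3.11.15, pandas 2.3.3, numpy 2.4.6, scipy 1.17.1 and matplotlib 3.10.9. RefSeq gene symbols, from a table of another assembly, served to find 17 genes of the 77 that overlap another gene.

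The 77 genes and the lists (marker lists of 11 cell types and 8 lists of ciliary or related pathway genes) were chosen with earlier results of these data known. Any of the 77 could be named, with full values for called genes, for the most abundant of each role and for those with the highest single region; of the other lists, called genes and the regulators could be named, and 1 of these genes is not reported here. The comparison of NOTO-rich regions was chosen after the values were seen. The alternatives tried were no filter, a stricter one (5 TPM in 20 regions), a pseudocount of 0.1, quantile normalization, omission of the 13 mitochondrially encoded genes, a region's number of detected genes as a covariate, embryo slopes tested as 3 values, each embryo left out, E20 sections alone or in separate blocks, medians over regions for the stage, and, added after seeing the data, omission of single regions.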

Additional observations from a re-analysis of the deposited data

Results flagged for a closer look

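The slopes of the 3 embryos differed by limma's moderated F test for 5 of the 114 called results that have a slope per embryo. CFAP410, a basal body protein, had section slopes of 3.11 at E20, -0.78 in E18 embryo 1 and 0.46 in E18 embryo 2 (limma adjusted p of the difference 0.00121). For IFT172 they were 2.11 at E20, -0.09 in E18 embryo 1 and -0.01 in E18 embryo 2 (limma adjusted p 0.0140), so both section calls of these genes come from the E20 embryo. On the epiblast score CFAP410 had slopes of 0.81, -0.40 and 0.06 in the E20 embryo, E18 embryo 1 and E18 embryo 2 (limma adjusted p 0.0163). IFT140 had slopes of -0.59, 0.08 and 0.09 on the yolk sac endoderm score in the same embryos (limma adjusted p 0.0399). DNAJB13 had slopes of -0.12, -0.70 and -1.55 on the amnion score (limma adjusted p 0.0273), negative in 3 of 3 embryos.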

How the results depend on the processing

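Over the 116 called results for single genes, 1358 alternative values were computed: 950 kept direction and threshold, 401 kept the direction only and 7 changed sign. The sign changes were IFT20 between stages with E20 section 7 alone (-0.17) and, without the E20 embryo, IFT172 along sections, CFAP410 with the epiblast score and CFAP298, CFAP300, IFT122 and IFT140 with the yolk sac score. Leaving out 1 embryo at a time, these 6 slopes ran from -0.032 to 1.43, -0.042 to 0.56, -0.56 to 0.15, -0.43 to 0.096, -0.45 to 0.0093 and -0.54 to 0.064 in that order. The 2 genes called between stages (11.4% of all genes called) became 1 with no filter (9.03%) and 0 after quantile normalization (8.54%). Leaving out the mitochondrially encoded genes also gave 0 (5.56%). E20 sections 1, 2, 3, 4 and 5 alone gave 10, 9, 2, 7 and 7 (22.7%, 22%, 20.2%, 20.2% and 19.9%). In each of these 5 the share of the 70 was under that of all genes. Sections 6 and 7 alone gave 0 and 0, where few of all genes passed either (0.197% and 0.112%). Leaving out an E18 embryo gave differences without a test. The 14 called along sections became 9 under the stricter filter (17.7%), 9 after quantile normalization (8.64%) and 4 with genes detected as a covariate (3.3%). They became 0 with E20 in separate blocks (0.0394%) and 6 without the NOTO-rich regions (7.4%). The 0 along sectors became 1 after quantile normalization (4.43%) and 2 with the covariate (3.81%). The 18 of the epiblast score became 10 under the stricter filter (49.2%). The 13 of the streak score became 6 after quantile normalization (12%), 7 with the covariate (10%) and 7 without the NOTO-rich regions (12.2%). The 34 of the node score became 18 under the stricter filter (19.8%), which tests fewer genes, and 11 without the NOTO-rich regions (11.9%). The 10 of the yolk sac score became 5 with the covariate (16.7%) and the 18 of the mesenchyme score 9 under the stricter filter (36.5%). The stricter filter tested 8 of the 14 genes called along sections. It tested 10 of the 18 called with the epiblast score and 9 of the 18 called with the mesenchyme score. All of those tested kept direction and threshold. The 7 of the amnion score became 12 after quantile normalization (21.8%) and 15 with the covariate (20.2%). Embryo slopes tested as 3 values called 0 in the section trend and in each of the 6 scores. Leaving out 1 embryo at a time gave 0 to 11 along sections (0.0591% to 15.8%), 0 to 2 along sectors (0% to 7.42%) and 12 to 20 for epiblast (27.7% to 37%). It gave 3 to 13 for streak (4.46% to 18.6%), 22 to 29 for node (4.72% to 14.8%) and 0 to 15 for yolk sac (0.171% to 27.2%). For mesenchyme it gave 12 to 17 (17.1% to 30%) and for amnion 6 to 17 (13.7% to 29.7%). The 10 genes at least 1 log2 unit apart between the E18 embryos became 39 with a pseudocount of 0.1, 3 after quantile normalization and 19 with omission of the mitochondrially encoded genes. The median difference over all genes also moved, to 0.66, 0.03 and 0.59 under these settings. Genes highest in the NOTO-rich region numbered 18, 28 and 48 after quantile normalization and 20, 32 and 49 with omission of the mitochondrially encoded genes, in the E20 embryo, E18 embryo 1 and E18 embryo 2. For these alternative counts the shares of all genes were not computed, so they have no background to be read against. Except where stated, the cause was not tested. No paired analysis was possible because regions of different embryos share no replicate. TPM hides depth, which limits what values near 0 can show.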
